A study of Mus musculus with 6 samples.

Results

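The Notch receptors, ligands and targets described here are 10 genes: the receptors Notch1, Notch2, Notch3 and Notch4, the ligands Dll1, Dll3, Jag1 and Jag2, and the target genes Hes1 and Hey1. They were picked by symbol among the 53927 gene symbols of the deposited tables, and 10 of 10 were found. RNA-seq was done on mouse embryonic stem cells (ESCs), labelled wild type, in 3 libraries of each of 2 media. The tested medium was N2B27, a serum-free medium, with 8 µM BRD0705, an inhibitor selective for GSK3 alpha, and 1 µM PD0325901, an inhibitor of the kinase MEK; it is called BRD0705/PD03. The comparison medium, 2i, was N2B27 with 3 µM CHIR99021, which inhibits both GSK3 forms, and 1 µM PD0325901, so that the MEK inhibitor was shared by both groups. The labels state neither passage numbers nor clones.

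Notch signalling passes between touching cells. A ligand of the Delta or Jagged type on one cell binds a Notch receptor on its neighbour, the receptor is cut by an ADAM protease and then by gamma-secretase, and the freed intracellular part joins the DNA-binding protein RBPJ and a Mastermind coactivator to switch on genes such as those of the Hes and Hey repressors. In the early mouse embryo the pathway is known for its part in lineage choices, among them neural differentiation and the patterning of somites. Undifferentiated ESCs express receptors and ligands of the pathway.

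Some facts about the libraries bear on how the members are read. The labels name the line E14, which is male, while the growth protocol describes B6D2F1 ESCs grown out in each medium separately on feeders, and the Y-linked Ddx3y gene stood at 114, 127 and 126 CPM (counts divided by the TMM-scaled total of their library) in BRD0705/PD03 against 3.32, 2.91 and 2.84 CPM in 2i, so a difference of medium and one of cells cannot be told apart. The Y-linked Eif2s3y (109 ± 3.00 against 1.16 ± 0.297 CPM) and Uty (84.1 ± 2.42 against 2.96 ± 0.555 CPM; SD, n = 3 each) differed the same way. Over 533 expressed X-linked genes the median log2 fold change was -0.78, and over 15006 autosomal genes it was -0.0044. The groups thus differed in RNA from both sex chromosomes. The members lie on chromosomes 2, 3, 7, 12, 16 and 17. Markers of fibroblasts, the usual feeder cells, were higher in BRD0705/PD03 for 12 of 14 genes, with a summed level of 891 to 1308 CPM against 528 to 545 CPM in 2i. Library totals were 27825601 to 40790837 counts in BRD0705/PD03 and 16968959 to 51180228 counts in 2i, and the ESC genes Pou5f1 (687 ± 6.29 against 765 ± 54.9 CPM), Nanog (324 ± 20.3 against 625 ± 8.52 CPM) and Esrrb (279 ± 13.6 against 435 ± 12.6 CPM) were abundant in both groups (SD, n = 3 each). Of 8 pluripotency markers, 3 were higher in BRD0705/PD03 and 4 lower. The higher ones were Zfp42 (257 ± 9.95 against 116 ± 1.30 CPM), Tdgf1 (362 ± 11.6 against 290.2 ± 15.7 CPM) and Utf1 (36.9 ± 0.401 against 13.9 ± 1.75 CPM). The lower ones were Pou5f1, Nanog, Esrrb and Klf4 (122 ± 4.33 against 293 ± 2.67 CPM).

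The Notch genes differed between the groups, which may differ in cells as well as medium, in both directions. The Delta ligands Dll1 and Dll3, the receptors Notch2 and Notch3, the ligand Jag2 and the targets Hes1 and Hey1 were higher in BRD0705/PD03, and the receptors Notch1 and Notch4 and the ligand Jag1 were lower. Dll1 moved furthest, by 4.58 ± 0.18 on the log2 scale (± standard error), a fold of 24.0. By edgeR's quasi-likelihood test, with Benjamini-Hochberg adjustment over all genes tested and a threshold of 0.05, 7 of 10 members rose and 3 of 10 fell. All 10 passed the filter on low counts. Of the 20422 genes tested, 30.1% were called higher and 31.4% lower, together 61.4%, so a call by itself is common in this comparison. The median log2 fold change was 0.78 over the 10 members and 0.0003 over all genes tested. Tested against a fold of 1.5, Dll1, Dll3, Notch2 and Notch3 were higher and Notch4 was lower, and the other 5 did not pass; 12.2% of all genes tested were higher and 12.7% lower in that test. In 10 of 10 members the 3 libraries of one group lay apart from the 3 of the other, as they did in 66.0% of all genes tested. Separate cultures are not stated for the libraries, so the p-values measure a spread that may be technical. In whole cultures, fewer cells that express a gene and less RNA per cell cannot be told apart.

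**Figure D1:**
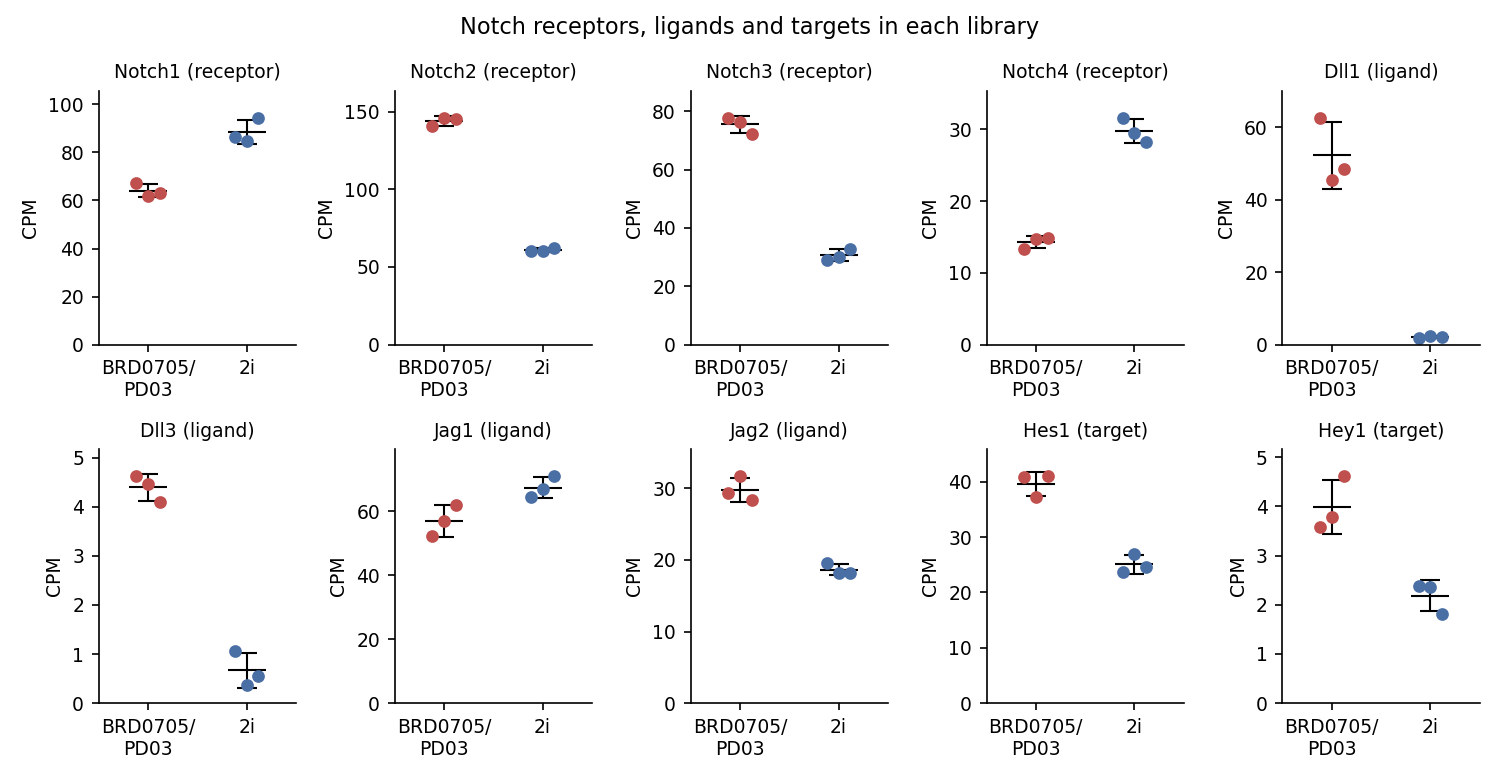
Level of each of the 10 genes in each library, in CPM on a linear axis from 0, with BRD0705/PD03 on the left of each panel and 2i on the right; points are libraries, the wide bar is the mean and the whiskers 1 SD (n = 3). The groups do not overlap in any panel, and Dll1 spans 45.5 to 62.7 CPM in BRD0705/PD03 against 1.96 to 2.27 CPM in 2i.

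Among the receptors, Notch2 and Notch3 were more than 2-fold higher in BRD0705/PD03, and Notch4 was more than 2-fold lower; 21.2% of all genes tested were called with a change of at least that size in either direction. Notch2 (ENSMUSG00000027878, chromosome 3, 98013527 to 98150361 on GRCm38, the assembly also called mm10) encodes a broadly expressed receptor. It stood at 141, 146 and 145 CPM in BRD0705/PD03 against 60.2, 60.1 and 62.5 CPM in 2i. Libraries within a group lay close together, and the log2 fold change was 1.24 ± 0.04 (edgeR adjusted p = 6.9e-15). Notch3 (chromosome 17, 32120820 to 32166852), a receptor best known from mural cells of blood vessels, stood at 77.8, 76.4 and 72.3 CPM in BRD0705/PD03 against 29.0, 29.9 and 32.9 CPM in 2i. Every BRD0705/PD03 library exceeded every 2i library, and the change was 1.30 ± 0.05 (edgeR adjusted p = 1.76e-13).

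Notch1 and Notch4 went the other way. Notch1 (chromosome 2, 26457903 to 26516663), the receptor needed for orderly somite formation and for T cell fate in the mouse, stood at 67.3, 62.0 and 63.1 CPM in BRD0705/PD03 against 86.3, 84.8 and 94.4 CPM in 2i. The groups were apart by a smaller margin than for Notch2, with a log2 fold change of -0.46 ± 0.05 (edgeR adjusted p = 1.65e-07). Notch4 (chromosome 17, 34564268 to 34588503), a receptor known chiefly from endothelium, stood at 13.3, 14.7 and 14.9 CPM in BRD0705/PD03 against 31.6, 29.5 and 28.3 CPM in 2i. All 3 BRD0705/PD03 libraries lay well below the 3 of 2i, and the change was -1.06 ± 0.07 (edgeR adjusted p = 1.04e-10). Of the endothelial markers, 4 of 7 were tested, and Pecam1 and Kdr were lower in BRD0705/PD03 as Notch4 was, while Tek was higher; their values are given with the other marker lists. The endothelial adhesion gene Cdh5 was near 0, at 0.065 ± 0.042 CPM in BRD0705/PD03 and with no count in 2i (SD, n = 3 each), and the part of endothelial cells was not tested.

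The ligands held the largest differences. Dll1 (ENSMUSG00000014773, chromosome 17, 15367354 to 15376872) is the Delta ligand of somites and neural progenitors, and in neural progenitors it is itself repressed by HES1. Dll1 had 2034, 1254 and 1980 counts in BRD0705/PD03 and 33, 114 and 55 counts in 2i. Scaled, that was 62.7, 45.5 and 48.6 CPM in BRD0705/PD03 against 1.96, 2.27 and 2.17 CPM in 2i. It was low in every 2i library, and BRD0705/PD03 replicate 1 stood above the other 2 libraries of its group (edgeR adjusted p = 7.82e-07). Without that library the log2 fold change was 4.44, the lowest when any 1 library was left out, and the highest was 4.67. Of all genes tested, 1.52% had a log2 fold change at least as far from 0 as Dll1.

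Dll3 (chromosome 7, 28293553 to 28302238) encodes a divergent Delta protein that acts within the cell as an inhibitor of Notch signalling and is needed for segmentation of the somites. It had 150, 123 and 167 counts in BRD0705/PD03 against 18, 19 and 14 counts in 2i, which is 4.62, 4.47 and 4.10 CPM against 1.07, 0.379 and 0.553 CPM. The level was low in both groups, and 2i replicate 1 stood above the other 2 libraries of its group. The change was 2.92 ± 0.25 (edgeR adjusted p = 2.7e-08), and it was 2.52 to 3.30 when each library was left out in turn.

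Because Dll1 and Dll3 moved furthest, their promoter windows are printed here, beside that of Notch3 among the receptors that rose. Each window runs from 250 bases before to 50 bases after a RefSeq transcript start on GRCm38.p6, along the gene's strand, which is the minus strand for these windows. Windows were found for 8 of 10 members, Hes1 and Hey1 being named only, and Dll1 has 2 starts. Capitals mark the N box, CACNAG on either strand, a sequence that HES repressors bind.
Dll1, chr17:15376883-15377182: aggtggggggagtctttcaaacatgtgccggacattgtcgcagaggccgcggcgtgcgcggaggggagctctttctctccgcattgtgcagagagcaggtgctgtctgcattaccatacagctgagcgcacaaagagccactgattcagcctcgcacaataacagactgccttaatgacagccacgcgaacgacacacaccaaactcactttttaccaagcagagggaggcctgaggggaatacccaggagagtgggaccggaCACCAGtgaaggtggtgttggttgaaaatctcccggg
Dll1, chr17:15375774-15376073: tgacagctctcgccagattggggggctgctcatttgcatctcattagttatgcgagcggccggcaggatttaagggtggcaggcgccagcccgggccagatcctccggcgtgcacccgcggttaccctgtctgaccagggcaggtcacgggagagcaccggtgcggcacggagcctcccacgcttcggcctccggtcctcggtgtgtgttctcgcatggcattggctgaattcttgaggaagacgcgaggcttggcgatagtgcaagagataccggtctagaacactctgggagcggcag
Dll3, chr7:28301736-28302035: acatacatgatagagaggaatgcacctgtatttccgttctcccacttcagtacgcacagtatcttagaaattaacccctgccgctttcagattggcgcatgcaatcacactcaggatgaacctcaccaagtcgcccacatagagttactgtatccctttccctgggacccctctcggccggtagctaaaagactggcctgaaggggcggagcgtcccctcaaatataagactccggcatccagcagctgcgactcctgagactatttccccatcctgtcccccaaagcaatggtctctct
Notch3, chr17:32166841-32167140: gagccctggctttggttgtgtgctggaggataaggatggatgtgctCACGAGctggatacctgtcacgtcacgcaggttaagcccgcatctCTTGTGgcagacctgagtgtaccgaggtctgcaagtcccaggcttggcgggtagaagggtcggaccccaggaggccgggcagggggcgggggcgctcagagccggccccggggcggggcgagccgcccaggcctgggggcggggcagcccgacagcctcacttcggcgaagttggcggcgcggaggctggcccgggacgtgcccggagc
The RBPJ core TGGGAA, searched on both strands, occurred in 0 of 9 member windows, while 25.6% of 32851 RefSeq promoter windows of the same length held it. Those 9 windows belong to receptors and ligands only. The target genes Hes1 and Hey1 were not searched, and 9 windows are too few to show a lack of the core. The N box occurred in 4 of 9 member windows, those of Notch1, Notch2, Notch3 and the first Dll1 start printed, and in 42.5% of all windows. In that Dll1 window it lies 14 bases into the transcript, as CACCAG, and in the Notch3 window its copies begin at -204 and -159, counting back from the transcript start. These are matches of letters; the files hold no binding data.

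The Jagged ligands split. Jag2 (chromosome 12, 112907819 to 112929776) stood at 29.3, 31.7 and 28.3 CPM in BRD0705/PD03 against 19.5, 18.2 and 18.1 CPM in 2i. All 3 BRD0705/PD03 libraries were above all 3 of 2i, by 0.68 ± 0.06 on the log2 scale (edgeR adjusted p = 2.48e-08). Jag1 (chromosome 2, 137081456 to 137116644), the ligand whose human gene is mutated in Alagille syndrome, stood at 52.1, 56.8 and 62.0 CPM in BRD0705/PD03 against 64.3, 66.8 and 70.9 CPM in 2i. The highest BRD0705/PD03 library came close to the lowest of 2i, and the change was the smallest of the 10, at -0.24 ± 0.06 (edgeR adjusted p = 0.00265). The other ligands Dll4 (0.18 ± 0.058 against 0.046 ± 0.041 CPM) and Dlk2, a noncanonical ligand (0.11 ± 0.069 against 0.04 ± 0.039 CPM), were too low to test, the imprinted ligand-like gene Dlk1 stood at 0.385 ± 0.06 against 0.311 ± 0.13 CPM (edgeR adjusted p = 0.769), and Dner, an EGF-repeat protein of neurons, at 1.40 ± 0.049 against 1.84 ± 0.26 CPM (edgeR adjusted p = 0.0701; SD, n = 3 each).

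Both target genes were higher in BRD0705/PD03, by less than 2-fold. Hes1 (ENSMUSG00000022528, chromosome 16, 30064384 to 30067796), a repressor that is a target of Notch and is also induced by other signals in ESCs, stood at 40.8, 37.2 and 41.0 CPM in BRD0705/PD03 against 23.7, 26.9 and 24.5 CPM in 2i. The groups were separated by more than their own ranges, and the change was 0.65 ± 0.06 (edgeR adjusted p = 2.79e-08). Hey1 (chromosome 3, 8663359 to 8667256), a related repressor of heart and vessel development, had far fewer reads, at 3.57, 3.78 and 4.61 CPM in BRD0705/PD03 against 2.37, 2.35 and 1.82 CPM in 2i. Its groups were apart as well, with a change of 0.87 ± 0.16 (edgeR adjusted p = 0.000144).

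**Figure D2:**
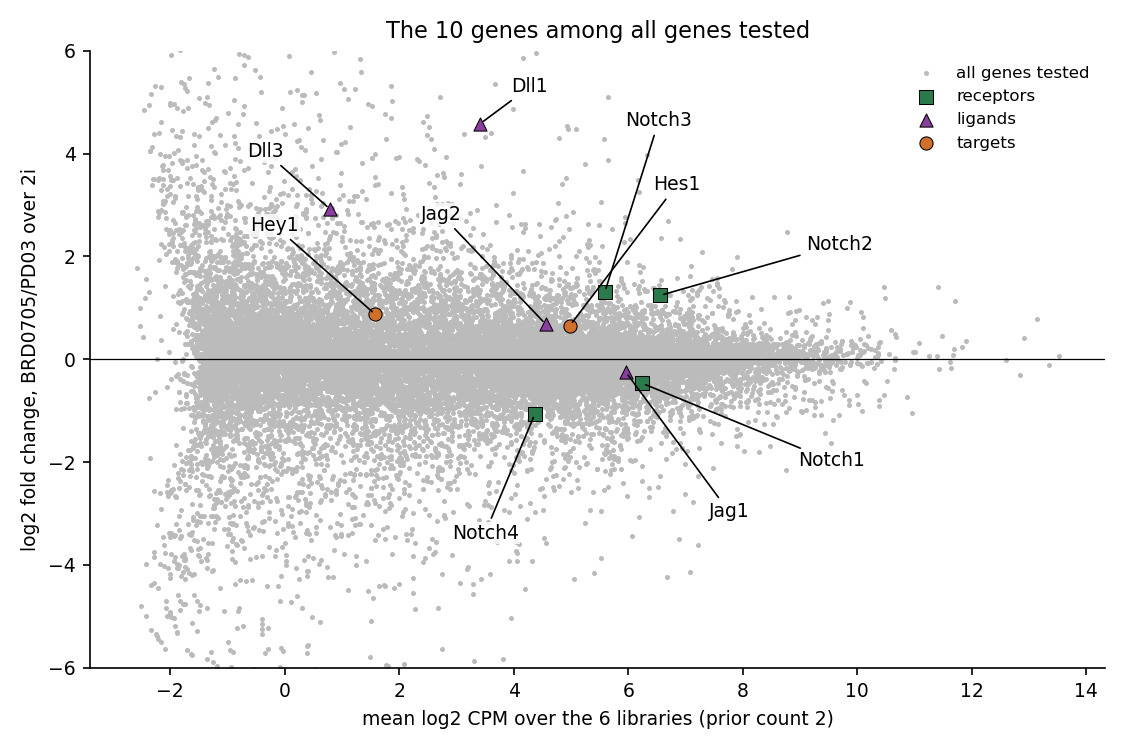
Log2 fold change of BRD0705/PD03 over 2i against mean log2 CPM for all genes tested (grey points), with receptors as squares, ligands as triangles and targets as circles; 161 genes beyond 6 on the vertical axis are not drawn. Dll1 at 4.58 and Dll3 at 2.92 lie above most grey points of like level, and the other 8 lie between -1.06 and 1.30.

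Fibroblast markers moved with the same groups, so their values are set beside the members. In BRD0705/PD03 the mean log2 CPM of the 14 markers was 4.53, 4.77 and 4.96, against 3.90, 3.94 and 3.87 in 2i. The most abundant were the collagen genes Col1a2 (307 ± 62.6 against 142 ± 4.66 CPM), Col3a1 (297 ± 60.0 against 127 ± 0.402 CPM) and Col1a1 (142 ± 29.6 against 77.7 ± 1.96 CPM; SD, n = 3 each). Within BRD0705/PD03, 4 of 10 members (Notch1, Notch3, Dll1 and Dll3) were highest in replicate 1, where the markers were lowest. Another 4 (Notch4, Jag1, Hes1 and Hey1) were highest in replicate 3, where the markers were highest, and 2 (Notch2 and Jag2) in replicate 2. The same split was not counted over all genes tested, so nothing about feeder cells is read from it. With the marker level as a term in the edgeR fit, 8 of 10 members were called, 6 higher and 2 lower, beside 9.18% higher and 12.6% lower, together 21.8%, of all genes tested. Dll1 (5.33 ± 0.24), Notch2 (1.16 ± 0.14), Notch3 (1.53 ± 0.16), Notch4 (-1.39 ± 0.23), Dll3 (3.32 ± 0.67), Jag2 (0.76 ± 0.21) and Hes1 (0.62 ± 0.20, edgeR adjusted p = 0.0363) kept their direction and their call. Jag1 also kept its call and differed by more, at -0.70 ± 0.17 (edgeR adjusted p = 0.00546). Notch1 (-0.23 ± 0.16, edgeR adjusted p = 0.374) and Hey1 (0.07 ± 0.49, edgeR adjusted p = 0.943) did not pass in that fit. Every BRD0705/PD03 library had a higher marker level than every 2i library, so the fit separates marker level from group poorly. A call kept or lost in it does not show the part of feeder cells, which was not tested.

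**Figure D3:**
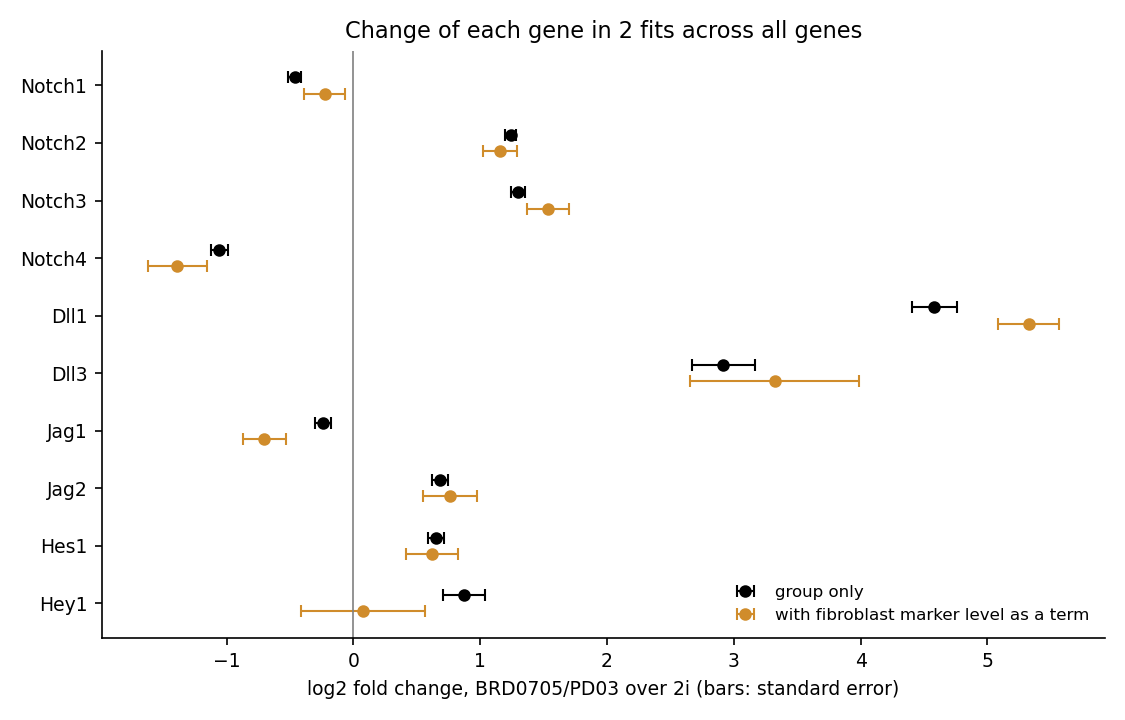
Log2 fold change of BRD0705/PD03 over 2i for each gene, with standard errors as bars, from the fit with group only (black) and from the fit that also holds the fibroblast marker level (orange). Black and orange lie on the same side of 0 for each gene, and the orange bars of Notch1 (-0.23 ± 0.16) and Hey1 (0.07 ± 0.49) come near or across 0.

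Markers of other cell types that use Notch were also measured. For presomitic and somitic mesoderm, where Dll1 and Dll3 are typical, the 9 markers summed to 3.43 to 3.94 CPM in BRD0705/PD03 and 1.26 to 2.14 CPM in 2i. The most abundant, T (brachyury), stood at 1.32 ± 0.28 against 0.112 ± 0.0493 CPM, Pcdh8 at 0.951 ± 0.175 against 0.106 ± 0.0233 CPM and Tbx6 at 0.639 ± 0.0845 against 0.779 ± 0.158 CPM, and the presomitic factor Msgn1 was near 0 in both groups (0.0082 ± 0.014 against 0 CPM). Of the 3 of these 9 that were tested, T and Pcdh8 rose and Tbx6 did not pass (edgeR adjusted p = 0.534). Neural progenitor markers summed to 133 to 137 CPM against 115 to 123 CPM in 2i, with 2 of 4 tested higher and 2 lower. Of these, Pax6 rose (13.1 ± 0.242 against 0.363 ± 0.0969 CPM), as did Nes (36.8 ± 2.14 against 24.3 ± 2.22 CPM), and Tubb3 fell (83.5 ± 0.578 against 93.2 ± 6.30 CPM). Endothelial markers numbered 1 higher and 2 lower of 4 tested, with Pecam1, which ESCs also express, at 60.4 ± 1.81 against 111 ± 6.66 CPM, Tek at 16.7 ± 1.22 against 7.35 ± 0.257 CPM and Kdr at 1.70 ± 0.344 against 3.12 ± 0.302 CPM. Primitive endoderm markers numbered 2 higher and 1 lower of 5 tested and summed to 5.21 to 5.89 CPM against 4.67 to 5.16 CPM in 2i. The largest part of that sum was Pdgfra (3.36 ± 0.453 against 2.35 ± 0.224 CPM), which is also among the fibroblast markers. The other gene called higher, Foxa2, was low in both groups (0.475 ± 0.109 against 0.106 ± 0.114 CPM). Gata4 fell (0.552 ± 0.033 against 0.997 ± 0.066 CPM), and Gata6 did not pass (0.513 ± 0.0717 against 0.614 ± 0.148 CPM; SD, n = 3 each throughout). The part of such cells in the members' differences was not tested.

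Levels of different genes were compared per transcript length, as reads per kilobase of mean annotated transcript length, scaled to a common total. In BRD0705/PD03 the order of the level was Hes1 (70.8 ± 4.12), Dll1 (56.0 ± 9.70), Notch1 (54.1 ± 2.27), Jag2 (33.8 ± 1.80), Notch3 (31.0 ± 1.01), Notch2 (29.8 ± 0.699), Jag1 (20.7 ± 1.90), Notch4 (11.8 ± 0.739), Dll3 (4.08 ± 0.23) and Hey1 (4.08 ± 0.587). In 2i it was Notch1 (75.5 ± 7.61), Hes1 (45.1 ± 2.32), Notch4 (24.9 ± 1.30), Jag1 (24.6 ± 2.11), Jag2 (21.3 ± 1.14), Notch2 (12.7 ± 0.81), Notch3 (12.7 ± 1.33), Dll1 (2.31 ± 0.18), Hey1 (2.24 ± 0.252) and Dll3 (0.626 ± 0.335; SD, n = 3 each). Neighbours whose libraries overlapped were Hes1 and Dll1, Dll1 and Notch1, Notch3 and Notch2, and Dll3 and Hey1 in BRD0705/PD03, and Notch4 and Jag1, Notch2 and Notch3, and Dll1 and Hey1 in 2i. Dll1 thus held rank 2 of 10 in BRD0705/PD03 and rank 8 in 2i, or rank 9 in 2i with the longest transcript as the length. Other ranks moved more with that length. Notch1 went from rank 3 to 6 in BRD0705/PD03 and from 1 to 3 in 2i. Jag1 went from rank 7 to 4 in BRD0705/PD03 and from 4 to 2 in 2i, and Jag2 from 4 to 7 and from 5 to 7. The summed ligand level was 115 ± 7.67 in BRD0705/PD03 against 48.9 ± 2.76 in 2i, and Dll1 made up 48.7 ± 5.06% of it against 4.73 ± 0.394%. Jag1 made up 18.1 ± 2.60% of the ligand level in BRD0705/PD03 against 50.4 ± 2.21% in 2i.

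The summed receptor level per length was 127 ± 1.5 in BRD0705/PD03 against 126 ± 9.92 in 2i, and the makeup differed. Notch1 gave 42.7 ± 1.29% of it against 59.9 ± 1.37%, Notch2 gave 23.5 ± 0.814% against 10.1 ± 0.163%, Notch3 gave 24.4 ± 0.672% against 10.1 ± 0.394%, and Notch4 gave 9.34 ± 0.682% against 19.9 ± 1.61%. These levels rest on the length used. With the longest annotated transcript, the summed receptor level was 63.1 ± 0.619 in BRD0705/PD03 against 47.5 ± 4.13 in 2i, and Notch2 was the leading receptor in BRD0705/PD03 with 42.8%, against 24.7% in 2i. Notch1 then gave 21.1% in BRD0705/PD03 against 39.7% in 2i, where it led, Notch3 gave 29.4% against 16.3%, and Notch4 gave 6.76% against 19.3%. The summed ligand level was then 63.4 ± 2.88 in BRD0705/PD03 against 33.3 ± 2.68 in 2i. The share of Dll1 among ligands was 45.0% against 3.61% with that length, and that of Jag1 was 31.6% against 72.7%.

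**Figure D4:**
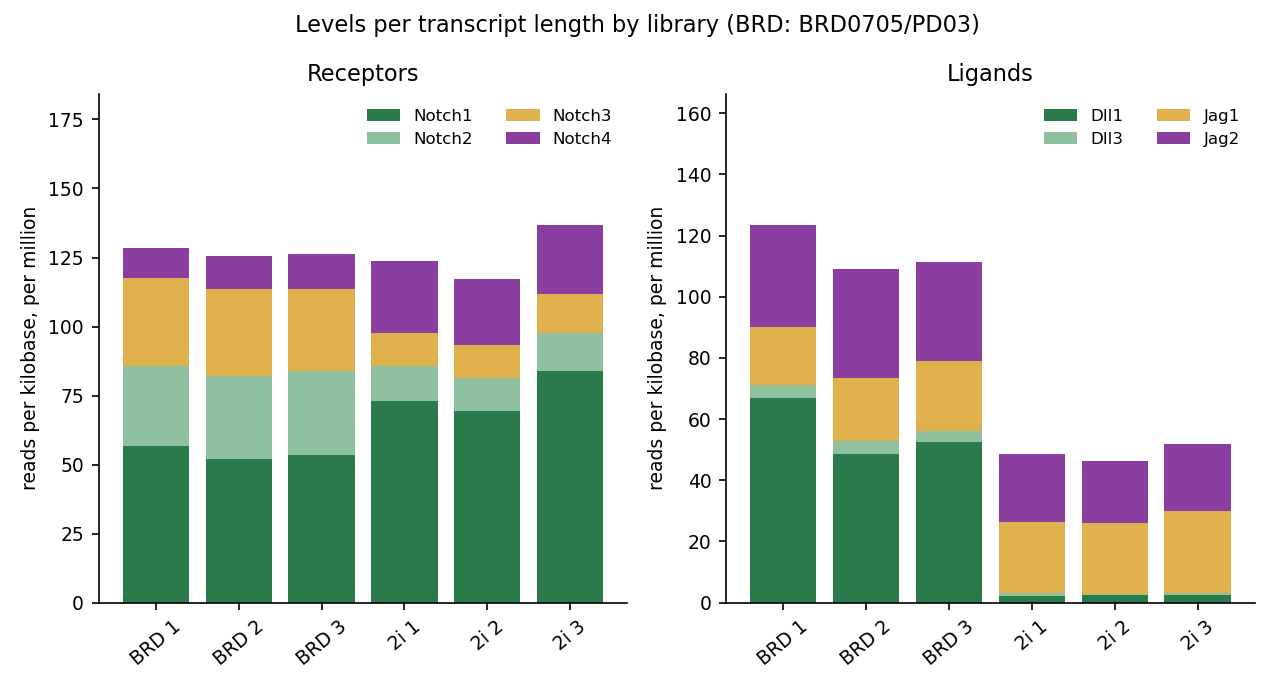
Level per mean transcript length of the 4 receptors (left) and the 4 ligands (right) in each library, stacked, with BRD0705/PD03 libraries before 2i libraries. With this length the receptor stacks are of like height and differ in makeup, while the ligand stacks reach 109 to 123 in BRD0705/PD03 and 46.2 to 51.8 in 2i, with Dll1 as the main difference. With the longest transcript, not drawn, the receptor sums are 62.4 to 63.6 in BRD0705/PD03 and 43.8 to 51.9 in 2i.

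Other genes of the pathway, taken from lists by role, moved both ways. Of 63 such genes 56 were tested; 21 were higher in BRD0705/PD03 and 16 lower, with a median log2 fold change of -0.0085, beside 30.1% and 31.4% of all genes and a median of 0.0003. The fringe genes Lfng and Mfng, whose enzymes add sugar to Notch receptors and alter which ligands they answer to, were the furthest apart. Lfng (lunatic fringe) stood at 1.39, 2.43 and 1.55 CPM in BRD0705/PD03 against 0.178, 0.199 and 0.395 CPM in 2i. It was low in both groups and higher in every BRD0705/PD03 library, by 2.79 ± 0.34 (edgeR adjusted p = 8.46e-07). Mfng (manic fringe) stood at 3.76, 2.98 and 2.87 CPM in BRD0705/PD03 against 12.8, 14.1 and 14.9 CPM in 2i. It was lower in every BRD0705/PD03 library, by -2.13 ± 0.11 on the log2 scale (edgeR adjusted p = 6.6e-12). Of the other glycosylation genes, the fucosyltransferase gene Pofut1 (-0.29 ± 0.06) and the glucosyltransferase gene Poglut1 (-0.42 ± 0.04) fell, and Rfng did not pass (-0.12 ± 0.09, edgeR adjusted p = 0.264).

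Among 10 genes of receptor cleavage, 1 was higher and 5 lower (median -0.19). Adam10, the main protease of ligand-induced cutting, stood at 24.3, 24.4 and 25.3 CPM in BRD0705/PD03 against 46.9, 48.6 and 46.6 CPM in 2i, a change of -0.94 ± 0.05. The libraries of each group were within a few CPM of each other. Furin, the convertase that matures the receptor, changed by -0.92 ± 0.06 and Adam17 by 0.33 ± 0.05. Of 6 genes of ligand endocytosis 3 were higher and 2 lower (median 0.13); Mib1, the ubiquitin ligase that activates ligands, fell by 0.45 on the log2 scale, Epn1 fell by 0.22, and Mib2 (0.35 ± 0.05) and Neurl1a (0.44 ± 0.08) rose.

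Of 8 genes of receptor turnover and inhibition, 5 were higher and 1 lower (median 0.24). Dtx3, of the Deltex family of ubiquitin ligases, stood at 33.1, 33.1 and 30.8 CPM in BRD0705/PD03 against 9.50, 9.48 and 9.87 CPM in 2i, a change of 1.75 ± 0.07. Its groups were far apart, while Dtx3l (0.56 ± 0.04), Numbl (0.26 ± 0.06) and the Notch inhibitor gene Numb (-0.19 ± 0.06) moved less. Of 7 genes of the nuclear activator complex 5 were higher and 2 lower (median 0.27). Rbpj, the DNA-binding partner of all 4 receptors, stood at 303, 311 and 312 CPM in BRD0705/PD03 against 260.0, 258 and 261 CPM in 2i, a small change of 0.25 ± 0.04 with groups that did not overlap. Of the Mastermind genes, Maml1 (0.71 ± 0.06) rose and Maml2 (-1.17 ± 0.15) fell. The third, Maml3, rose by 1.23 ± 0.22 at a low level (1.95 ± 0.145 against 0.852 ± 0.137 CPM; SD, n = 3 each). The cofactor gene Snw1 differed by 0.27 ± 0.04. Lfng, Mib2, Epn1, Adam17, Numb, Numbl, Rbpj, Maml2, Snw1 and Tle4 were not called with the fibroblast term. These are among the genes of the lists given here, with Maml3 left aside. Numb was also not called by DESeq2 (adjusted p = 0.0686) or with upper-quartile factors (edgeR adjusted p = 0.056).

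Of 14 corepressor genes 5 were higher and 3 lower (median 0.0044). Tle5, a short Groucho-family protein that counters the longer ones, stood at 26.1, 26.1 and 26.3 CPM in BRD0705/PD03 against 82.7, 84.1 and 81.3 CPM in 2i, a change of -1.66 ± 0.05. Its libraries were nearly equal within each group. The histone deacetylase gene Hdac2 (-0.57 ± 0.04) fell, and Ctbp2 (0.49 ± 0.04) and the Groucho gene Tle4 (0.49 ± 0.04) rose. Of 9 further targets and genes of the Hes and Hey family, 4 were tested and 1 was called. That gene, Hes6, which opposes HES1 and favours neuronal differentiation, stood at 38.1, 34.7 and 32.0 CPM in BRD0705/PD03 against 9.44, 8.92 and 8.76 CPM in 2i, a change of 1.96 ± 0.08 (edgeR adjusted p = 6.37e-14). The canonical Notch targets Nrarp (1.58 ± 0.335 against 2.22 ± 0.468 CPM, edgeR adjusted p = 0.0687), Dtx1 (34.0 ± 1.61 against 35.8 ± 1.44 CPM, edgeR adjusted p = 0.25) and Hey2 (0.413 ± 0.127 against 0.370 ± 0.025 CPM, edgeR adjusted p = 0.833), named after their values were seen, did not pass, and Hes5 (0.057 ± 0.019 against 0.02 ± 0.02 CPM) and Heyl (0.061 ± 0.012 against 0.04 ± 0.02 CPM; SD, n = 3 each) were too low to test.

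**Figure D5:**
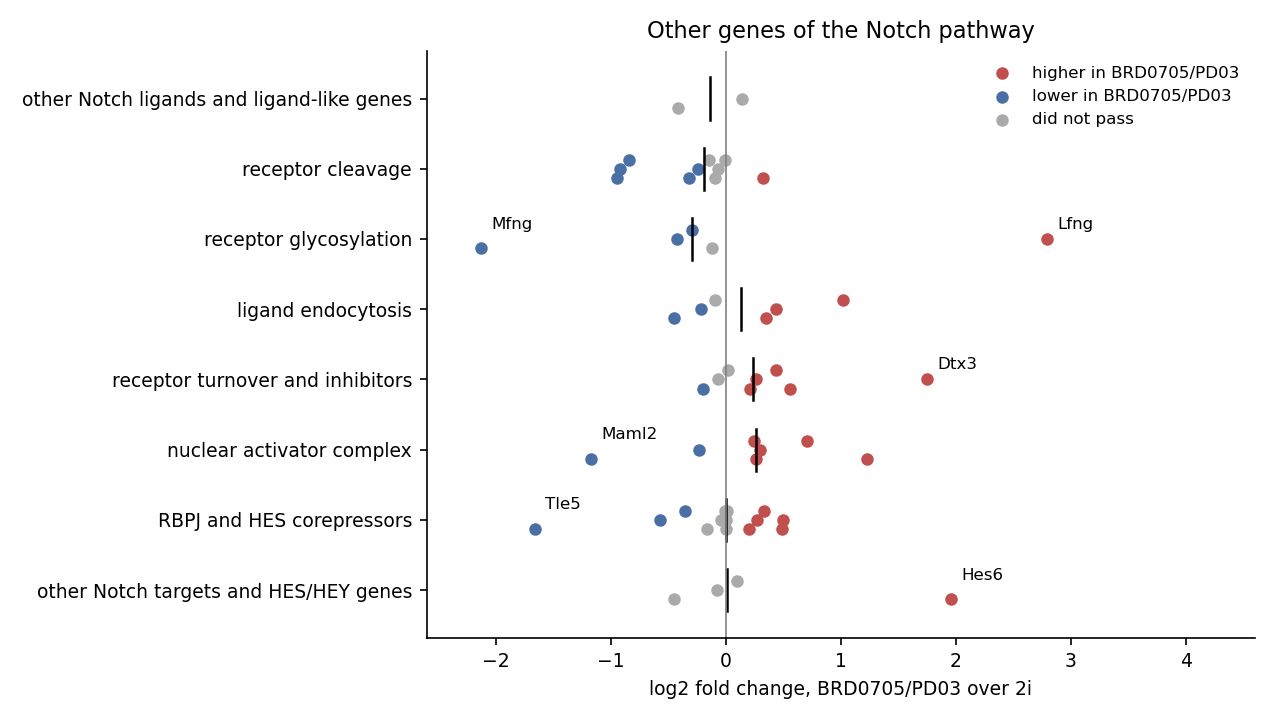
Log2 fold change of BRD0705/PD03 over 2i for each tested gene of 8 pathway lists, with genes called higher in red, called lower in blue and not called in grey; the black bar is the list's median. Lfng at 2.79 and Mfng at -2.13 lie furthest from 0, and list medians lie between -0.29 and 0.27.

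Some members share their place with other genes, and whether the counting used strand is not stated. The antisense gene Gm17276 over Notch3 had 74, 57 and 80 counts in BRD0705/PD03 against 15, 53 and 27 counts in 2i, and 2 gene models within Notch2, Gm42819 and Gm42820, had at most 81 counts in any library, small beside the 489 to 2948 counts of Notch3 and the 1015 to 5932 counts of Notch2. A noncoding gene on the opposite strand overlaps the span of Dll1 and had no value here. Whether any of its reads were counted to Dll1 cannot be told without the strand setting.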

How the data were processed

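RNA-seq of 6 libraries was analysed from 1 table of values per gene symbol for each. The authors deposited whole numbers that were taken as estimated counts, not scaled between libraries; the submitters' processing notes name Salmon, without a version, and the build mm10, while for the annotation, strand setting and rounding the sources give nothing. Sample titles gave the groups and replicate numbers. No library pair within a group was alike within sampling noise (chi-square per degree of freedom 2.77 to 9.84, over genes with at least 20 counts).

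The test across all genes was the two-sided quasi-likelihood test of edgeR 4.0.16 (R 4.3.3), after filterByExpr and with TMM scaling and robust estimation. Group was the only term, with Benjamini-Hochberg adjustment over 20422 genes at a threshold of 0.05. Standard errors are the log2 fold change over the square root of F. CPM use TMM-scaled library sizes. The steps were run on simulated counts of 19945 genes, with 50 genes changed at each fold. Of these, 18% were called at a fold of 1.2, 86% at 1.5, 98% at 2 and 100% at 4. Of 156 calls, 3.2% were unchanged genes. Far fewer genes were changed there than the 61.4% called in the data, so scaling and error rates in that setting were not tested. Positions and transcript lengths came from GENCODE M21 on GRCm38, with a length for 52055 of 53927 symbols. Promoters came from RefSeq (GRCm38.p6). The fibroblast term was the mean log2 CPM of 14 markers with a prior count of 2.

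The members and lists were chosen with earlier results of these data known, so none is independent evidence. All members were named, with up to 4 called genes of each pathway list by smallest p, every gene of lists of 5 or fewer, Rbpj, and the 3 most abundant of each marker list; a gene that this rule named is not reported here. Other genes, such as Zfp42, Utf1, Tdgf1, Klf4, Foxa2, Msgn1, Cdh5, Maml3, Ddx3y, Eif2s3y and Uty, were named after their values were seen.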

Additional observations from a re-analysis of the deposited data

How the results depend on the processing

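The 7 members called higher and 3 called lower were the counts in 13 of 15 alternatives, among them DESeq2 1.42.0, other scalings and filters, thinning to 16968959 counts and leaving out each library in turn, and in 143 of 150 member values the direction and the call were kept. Tested against a fold of 1.5, 4 members were higher and 1 lower, with Notch1, Jag1, Jag2, Hes1 and Hey1 no longer called; 5 pathway genes were higher and 5 lower, and 2498 and 2596 of all genes. With the fibroblast term, 6 members were higher and 2 lower, with 6 and 9 pathway genes and 1875 and 2575 of all genes; the cause was not tested. Leaving out each library gave Jag1 changes of -0.30 to -0.18 (highest edgeR adjusted p = 0.017) and Hey1 changes of 0.75 to 0.97. The replicate number as a block gave 7 and 3 members, 21 and 16 pathway genes, and 6059 and 6376 of all genes. Deviations of same-numbered libraries correlated across genes at -0.06, 0.079 and -0.07, and those of differently numbered libraries at -0.124 to 0.168. The values thus showed no sign of pairing by number, though a weak correlation cannot exclude it. At low counts, as for Dll3 in 2i, counting error limits the fold. With the longest transcript, 13 of 20 within-role shares moved by more than 1 SD.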
